A study of Mus musculus with 24 samples.

Results

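The question was whether pyridoxine hydrochloride (PH) and tocopherol acetate (TA), given together to cultured mouse whisker follicles, changed each transcript by the sum of their separate changes. The measure was the interaction, which is PH-TA minus PH minus TA plus control on the log2 scale, so that 0 stands for changes that add up. It was computed for 12 of the 24 arrays of the series, 3 each from the groups PH-TA, PH, TA and control. The groups were taken from the sample labels.

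Vibrissa follicles of B6C3F1 mice were taken on postnatal day 9 and kept for 24 h in RPMI medium with serum. PH-TA cultures held 0.015% PH and 0.024% TA, PH cultures 0.015% PH, TA cultures 0.024% TA, and control cultures neither. The other 12 arrays were the same 4 groups with 0.3% panthenyl ethyl ether (PEE) added to each. Each sample was total RNA from 10 follicles, and the 3 samples of a group came from 3 independent experiments, so several cell types were pooled, and the labels do not say how many animals. All 13 markers of hair matrix and shaft and all 9 of the inner root sheath were among the genes that passed the filter on background. In such pooled RNA, fewer cells of a type and less RNA per cell cannot be told apart.

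PH is a form of vitamin B6, which cells convert to pyridoxal phosphate, the cofactor of many enzymes of amino acid metabolism. TA is an ester of vitamin E, a lipid-soluble antioxidant that cells release from the ester. A growing follicle is built by dividing matrix cells around the dermal papilla, whose progeny form the hair shaft and the inner root sheath and make keratins. NRF2 is a transcription factor that switches on genes for glutathione use, heme breakdown and detoxification under oxidative or electrophilic stress.

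Values are log2 processed signal minus the log2 of the array's 75th percentile signal, and each ± gives a standard error. A gene was called at an adjusted p of 0.05 in a limma model of all 24 arrays. The 75th percentile signal itself was 203 to 248 on PH-TA arrays, 180 to 192 on PH arrays, 175 to 200 on TA arrays and 155 to 190 on control arrays, so PH-TA arrays were brighter than all others of the 4 groups. The Xist RNA, which female cells make, also set arrays apart. Its brighter probe read -7.90, -0.89 and -3.46 on PH-TA arrays, -7.44, -2.06 and -7.53 on PH arrays, -0.45, 1.19 and 0.57 on TA arrays, and 0.17, 0.74 and -0.60 on control arrays. PH replicates 1 and 3 and PH-TA replicate 1 were not well above background for it, nor was PEE-TA replicate 3. The Y-linked Eif2s3y was present on all 12 arrays, at 0.43 to 0.74 with PH-TA, 0.63 to 0.89 with PH, -0.03 to 0.25 with TA and 0.40 to 0.70 in control. The share of male and female follicles thus differed between samples, and its part in the results was not tested.

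Of 22065 genes or transcripts tested, 3 passed for the interaction, which is 0.0136% of them, and all 3 were higher than the sum of the single changes. They were Hmox1, Gfod1 and Lime1. On the lower side 0 genes passed (0%). At an unadjusted p under 0.05, 1475 genes passed (6.68%), 1016 higher (4.6%) and 459 lower (2.08%), again by limma. The middle of all genes was at -0.01, and the 5th and 95th percentiles were -0.38 and 0.52.

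The depth of this comparison was limited by 3 arrays per group. The 95% interval of an interaction had a median half-width of 0.35, and for 18155 genes (82.3%) it lay wholly within 1 log2 unit of 0. In simulated data with the spread of these arrays, 100 genes were shifted by 0.5 and 100 by 1, up or down. Of these, 24% and 63% were called, with 2 false calls among 22065 genes. So many shifted genes make the adjusted threshold easier to pass, and the simulated noise was independent between arrays. The shares thus do not give the rates for the real data, where 3 genes passed. Smaller departures from additivity were therefore often not detectable.

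Hmox1, the inducible heme oxygenase that breaks down heme and a target of NRF2, was lower with either compound alone and near control with both. It read 5.18, 5.16 and 5.14 with PH-TA, 4.86, 4.48 and 4.40 with PH, 4.50, 4.41 and 4.46 with TA, and 5.08, 5.43 and 5.42 in control. All PH-TA arrays were above all PH and TA arrays, and they overlapped with the range of control. Relative to control it was at -0.15 with PH-TA (limma, adjusted p = 0.317), fell by 0.73 with PH (0.00217) and fell by 0.85 with TA (0.00148). Its interaction was 1.43 ± 0.15 (adjusted p = 0.000583). By replicate number the interaction was 0.90, 1.69 and 1.70. The probe (NM_010442) lies on chromosome 8, 77624406 to 77624466, in build mm9.

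Gfod1, which encodes a glucose-fructose oxidoreductase domain protein, was below control in all 3 treated groups, by no more with both compounds than with either. It read -2.21, -2.17 and -2.61 with PH-TA, -2.67, -2.60 and -2.41 with PH, -2.50, -2.80 and -2.61 with TA, and -1.74, -1.68 and -1.69 in control. Every treated array was below every control array, and the treated groups overlapped. It fell by 0.63 with PH-TA, by 0.86 with PH and by 0.93 with TA relative to control. The interaction was 1.16 ± 0.15 (limma, adjusted p = 0.00462). This value came from a probe to the Ensembl transcript ENSMUST00000222779.1 on chromosome 13, 43360899 to 43360958 (mm9). The gene's other probe, to NM_001033399 on chromosome 13, 43290957 to 43291016, gave 0.21 ± 0.41 and did not pass, so the 2 probes disagreed. With their mean the interaction was 0.68 (adjusted p = 0.343), and with normexp background correction it was 0.40 (0.128). Normexp here added an offset of 50 to each signal, which narrows differences at dim probes, and its part was not tested.

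Lime1, an adaptor protein of lymphocyte signalling, was lower with TA and near control with both compounds. It read 1.14, 1.08 and 1.03 with PH-TA, 0.81, 0.83 and 0.77 with PH, 0.47, 0.76 and 0.61 with TA, and 1.01, 1.00 and 1.00 in control. All PH-TA arrays were above all arrays of the other 3 groups. Relative to control it was 0.08 with PH-TA (limma, adjusted p = 0.413) and -0.20 with PH (0.0967), and it fell by 0.39 with TA (0.0117). The interaction was 0.68 ± 0.10 (0.0152), from 1 probe (NM_023684) on chromosome 2, 181118195 to 181118254 in mm9.

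**Figure D1:**
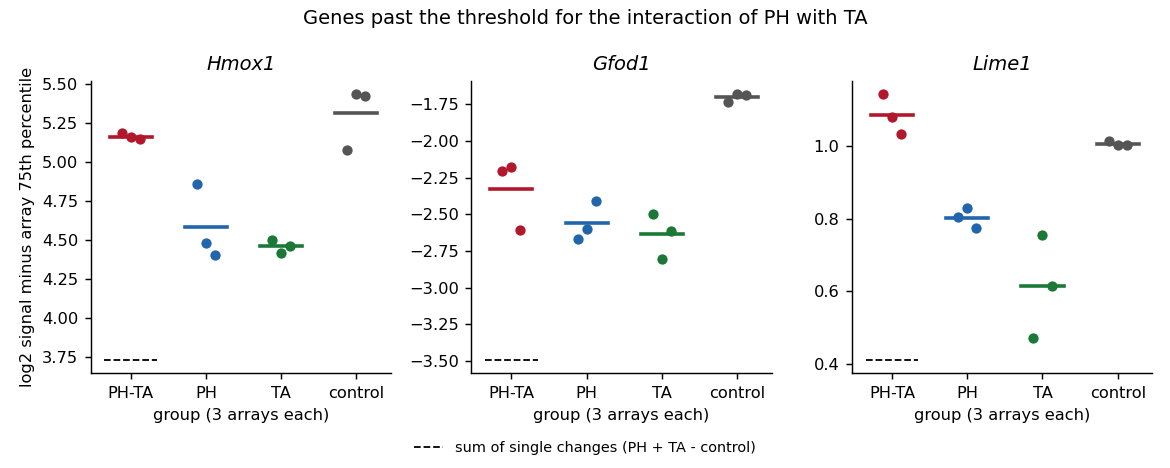
Signal of the 3 genes past the threshold for the interaction, as log2 minus the array's log2 75th percentile, by group. Points are arrays, solid bars are group means of 3 arrays, and the dashed line is the level at which the PH and TA changes would add up. The PH-TA arrays lie above the dashed line in each panel.

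The 3 calls depended on the arrays that estimate the spread. In a fit of only the 12 arrays, Hmox1 had an adjusted p of 0.0506, and Gfod1 and Lime1 of 0.0774, with the same sizes of interaction. That fit called 2 others, H2bc23 and the clone D10Bwg1070e (both 0.0417). Leaving out any 1 of the 12 arrays kept the calls of Hmox1 and Gfod1, while Lime1 kept its call in 5 of 12 cases. Leaving out a whole replicate number, 8 of the 24 arrays, left 2 arrays per group and ended most calls. The interactions then ran from 1.30 to 1.70 for Hmox1, 0.97 to 1.38 for Gfod1 and 0.57 to 0.77 for Lime1. Without replicate 1, Hmox1 still passed (adjusted p = 0.00481), but Gfod1 (0.508) and Lime1 (0.584) did not. Without replicate 2 the adjusted p-values were 0.40 for Hmox1, 0.508 for Gfod1 and 0.269 for Lime1, and without replicate 3 they were 0.203, 0.0664 and 0.288 in the same order. Without the 4 arrays low in Xist, an alternative chosen after the data were seen, the PH group held 1 array. The interaction, resting on that PH array, was then 1.52 for Hmox1, 1.14 for Gfod1 and 0.62 for Lime1. The brighter Xist probe still read -2.06 on PH replicate 2 and -3.46 on PH-TA replicate 3, which were kept. That fit thus did not even out Xist.

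H2bc23 and H2ac6, which encode histones H2B and H2A in the histone cluster of chromosome 13, had the largest interactions among the genes described here. H2bc23 was chosen after its values were seen. It read -4.92, -4.74 and -4.90 with PH-TA, -5.65, -5.70 and -5.06 with PH, -5.90, -5.64 and -5.39 with TA, and -4.12, -4.09 and -4.14 in control. Its PH-TA arrays lay between the control arrays and those of the single compounds, with no overlap. The interaction of H2bc23 was 2.14 ± 0.47 and did not pass in the model of 24 arrays (limma, adjusted p = 0.16). H2ac6 read -3.74, -4.42 and -4.42 with PH-TA, -4.74, -4.58 and -4.94 with PH, -5.50, -4.76 and -5.33 with TA, and -4.07, -3.50 and -3.85 in control. Its interaction of 1.95 ± 0.39 did not pass either (0.0933). Over all 53 histone genes tested, a class chosen after values were seen, the median interaction was -0.06.

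The promoters of Lime1, the called gene with an entry in the RefSeq promoter table, and of the 2 histone genes are shown because Lime1 passed for the interaction and the 2 histone genes had the highest values described here. Each is 250 bases before to 50 bases after the gene start in build GRCm38.p6, 5′ to 3′ on the gene's strand. Capitals mark matches, on either strand, to the CCAAT box (CCAAT), the TATA box (TATAAA), the octamer (ATTTGCAT) and the core of the NRF2 site (TGACNNNGC). The regions are chr2:181380985-181381284 on the plus strand for Lime1, chr13:23683910-23684209 on the minus strand for H2ac6, and chr13:21810150-21810449 on the minus strand for H2bc23.
Lime1: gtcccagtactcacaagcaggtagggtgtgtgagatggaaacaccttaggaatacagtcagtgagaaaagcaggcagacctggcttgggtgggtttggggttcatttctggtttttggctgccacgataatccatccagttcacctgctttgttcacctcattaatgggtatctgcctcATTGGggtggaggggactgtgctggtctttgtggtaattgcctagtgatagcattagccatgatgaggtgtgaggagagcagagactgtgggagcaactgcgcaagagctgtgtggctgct
H2ac6: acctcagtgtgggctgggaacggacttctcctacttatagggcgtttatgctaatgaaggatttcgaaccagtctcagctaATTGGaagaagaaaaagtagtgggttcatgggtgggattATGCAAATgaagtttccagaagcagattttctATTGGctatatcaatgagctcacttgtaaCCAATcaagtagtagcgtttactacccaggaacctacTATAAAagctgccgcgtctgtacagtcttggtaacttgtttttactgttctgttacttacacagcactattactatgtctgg
H2bc23: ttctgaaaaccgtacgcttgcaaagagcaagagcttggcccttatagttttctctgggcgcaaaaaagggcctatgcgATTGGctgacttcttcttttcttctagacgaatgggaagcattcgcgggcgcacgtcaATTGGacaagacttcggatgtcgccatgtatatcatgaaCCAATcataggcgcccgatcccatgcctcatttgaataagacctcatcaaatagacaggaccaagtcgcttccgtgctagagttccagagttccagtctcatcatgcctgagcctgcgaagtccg
Lime1 held 1 CCAAT box and H2bc23 held 3. H2ac6 held 3 CCAAT boxes, 1 TATA box and 1 octamer. Of 32851 promoters of the same length, 37.4% held a CCAAT box, 13.6% a TATA box, 1.74% an octamer and 12.4% the core of the NRF2 site, which none of the 3 promoters held. Of 63 histone gene promoters, 82.5% held a CCAAT box, 54.0% a TATA box, 20.6% an octamer and 4.76% the core of the NRF2 site.

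Other named genes with a high interaction missed the threshold. The non-coding RNAs Lncpint (1.24), Miat (1.26) and Mir142hg (1.23), the hormone gene Gnrh1 (0.89), the nuclear receptor gene Nr2f2 (0.80) and Ginm1 (0.55) had adjusted p-values of 0.0933 to 0.119 by limma. Miat read -2.99, -2.88 and -3.22 with PH-TA, -3.59, -3.77 and -3.68 with PH, -3.59, -3.51 and -3.13 with TA, and -2.85, -2.68 and -2.87 in control. Its single-compound arrays were lower than the control arrays, and 2 of the 3 PH-TA arrays were above all of them. A second Miat probe gave -0.51, so the probes disagreed.

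On the low side, LTO1 had -0.58 ± 0.10 (limma, adjusted p = 0.0933) and Mmp1b, a collagenase gene, -0.95 ± 0.21 (0.141). Mmp1b read -4.08, -4.15 and -4.35 with PH-TA, -2.93, -2.99 and -3.38 with PH, -3.16, -3.52 and -3.32 with TA, and -3.19, -3.20 and -3.18 in control. Its PH-TA arrays were below all others, and it fell by 1.00 relative to control with PH-TA alone (0.00022). Pyy (-1.23), Piwil2 (-1.49), Tmem213 (-1.09), Arg2 (-0.92), Exog (-0.51), Arl5b (-0.50), Nectin3 (-0.38) and R3hcc1l (-0.36) had adjusted p-values of 0.162 to 0.368. Tmem213 was not well above background on any control array. Other probes gave 0.27 for LTO1 and 0.13 for Nectin3, of opposite sign.

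The effects of each compound, averaged over the absence and presence of the other, passed for many more genes. These averages are independent contrasts of the same 12 arrays. For PH, 3877 genes passed (17.6%), 1743 higher (7.9%) and 2134 lower (9.67%). For TA, 2037 passed (9.23%), 726 higher (3.29%) and 1311 lower (5.94%). Both counts fell when array brightness was put in the model. All PH-TA arrays were brighter than all others of the 4 groups, so brightness and treatment cannot be told apart. In a model that also held array brightness (log2 of the 75th percentile) as a covariate, 296 genes passed for PH and 0 for TA. Without PH-TA replicate 1 alone 471 passed for TA. The fit without the 4 arrays low in Xist held 1 PH array, so its counts are not given. The part of array signal in these counts was not tested.

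Fibin, Serpini1 and Tac1 were among the largest rises with PH. Fibin, a secreted factor, read 4.20, 3.56 and 3.25 with PH-TA, 2.79, 3.24 and 3.04 with PH, 2.49, 2.30 and 2.17 with TA, and 1.48, 1.51 and 1.62 in control. PH-TA arrays were above all others, and TA arrays lay between PH and control. The average effect of PH on Fibin was 1.42 ± 0.17 (limma, adjusted p = 9.99e-05) and its interaction -0.14. Serpini1, a serine protease inhibitor gene, rose by 1.44 ± 0.19 (0.000201), and Tac1, which encodes the precursor of substance P, by 1.47 ± 0.24 (0.000983). Mcpt1, a mast cell protease gene, rose by 2.01 ± 0.49 (0.011) and Chrdl2, a BMP antagonist gene, by 1.26 ± 0.29 (0.00824). Fgg, Speer1 and Trim31 passed too, but were not well above background on any control array. For these a bound is given, the PH-TA mean over the lowest signal well above background on the control arrays or the gene's own signal there, whichever is higher. It was at least 1.77-fold for Fgg, 2.02-fold for Speer1 and 1.73-fold for Trim31. With normexp background correction the average effect was -0.0093 for Speer1 and -0.045 for Trim31. Its offset of 50 draws dim probes toward the same value, and the part of the offset was not tested. Of 6 mast cell markers, 4 were lower in the average effect of PH, against 9.67% of all genes, and the log2 of their summed level was 3.77 to 4.31 with PH-TA, 3.78 to 4.75 with PH, 4.21 to 4.61 with TA and 4.53 to 5.26 in control. The part of mast cells in these values was not tested.

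Rbp7, a retinol-binding protein gene, fell with PH whether TA was present or not. It read -1.42, -0.66 and -1.05 with PH-TA, -0.90, -0.97 and -0.77 with PH, 0.63, 0.78 and 1.31 with TA, and 1.33, 1.30 and 1.04 in control. The arrays with PH did not overlap with those without it. Its average effect of PH was -2.03 ± 0.17 (limma, adjusted p = 3.45e-06) and its interaction 0.15. Mmp9, a gelatinase gene, fell by 1.04 ± 0.12 (8.31e-05) with an interaction of -0.58 (0.658). Ifi27l2a, an interferon-induced gene, and Ifnb1 each fell by 1.02. Mrgprb2, a mast cell receptor gene, and Tac4 fell too, but Mrgprb2 was not well above background on any PH-TA array and Tac4 on any PH array. The brighter Xist probe fell by 5.15 (0.0113), and the Y-linked Eif2s3y rose by 0.38 (0.00876).

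Klhl30, Trim63 and Myh4, all known from skeletal muscle, were among the largest rises with TA. Klhl30 read -1.16, -1.30 and -1.13 with PH-TA, -1.49, -2.07 and -2.62 with PH, -1.34, -1.36 and -1.09 with TA, and -2.19, -3.15 and -2.80 in control. All arrays with TA were above all arrays without it. The average effect of TA was 1.15 ± 0.21 (limma, adjusted p = 0.00792) and the interaction -0.59 (0.882). Trim63, a muscle ubiquitin ligase gene, rose by 1.29 ± 0.31 (0.0191), and Myh4, a fast myosin gene, by 1.13 ± 0.33 (0.0401). Dusp27, Ascl4, Spon1 and Dipk1c passed as well, but none was well above background on any control array. With PH-TA they were at least 1.86-, 1.64-, 1.72- and 1.18-fold control by the same bound, in that order. With normexp background correction and its offset of 50 their average effects were -0.077 to -0.0073. Of 7 skeletal muscle markers, 4 were higher in the average effect of TA, against 3.29% of all genes, and the log2 of their summed level was 4.93 to 5.13 with PH-TA, 3.31 to 5.27 with PH, 4.92 to 5.50 with TA and 4.15 to 4.47 in control. The part of muscle tissue in these values was not tested.

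Cyp2a5, Cxcl3, a neutrophil-attracting chemokine gene, and Bcl2l15 fell with TA. Cxcl3 read -0.85, -1.06 and -0.62 with PH-TA, 0.42, -0.15 and 0.10 with PH, -0.46, -0.95 and -0.84 with TA, and -0.20, -0.03 and 0.32 in control. All arrays with TA were below all arrays without it. The average effect of TA on Cxcl3 was -0.88 ± 0.15 (limma, adjusted p = 0.00618), with an interaction of -0.18. Olfr229, Sprr2d, Cd200r1 and Ppbp fell by 0.81 to 0.96. Klrd1 passed too and was not well above background on any PH-TA or TA array.

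Genes that passed for both average effects had median changes that added up. Calls for TA were lost with array brightness in the model, as given above, so this set depends on the model. Both averages called 985 genes, of which 670 were lower in both, 308 higher in both and 7 opposite. In the 308 genes the median change from control was 0.69 with PH-TA, 0.36 with PH and 0.33 with TA, and the median interaction 0.00. In the 670 genes it was -0.61 with PH-TA, -0.31 with PH and -0.29 with TA, and the median interaction 0.01. Their interactions leaned to the higher side, with quartiles of -0.08 and 0.21. At an unadjusted p under 0.05 by limma, 98 of the 670 were higher and 15 lower. That was 16.9% of them, against 4.87% of the 308 genes and 6.68% of all genes. The averages that chose these genes do not fix the size of their interaction. They favour genes with a small spread, and the test of the interaction uses the same spread. The shares at an unadjusted p are thus not free of the choice. The medians by replicate number were 0.29, -0.13 and -0.13 for the genes higher in both, and -0.19, 0.08 and 0.17 for those lower in both, so they lay on both sides of 0. The interaction of the array signal was 0.58, 0.09 and -0.11 in the same replicates.

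**Figure D2:**
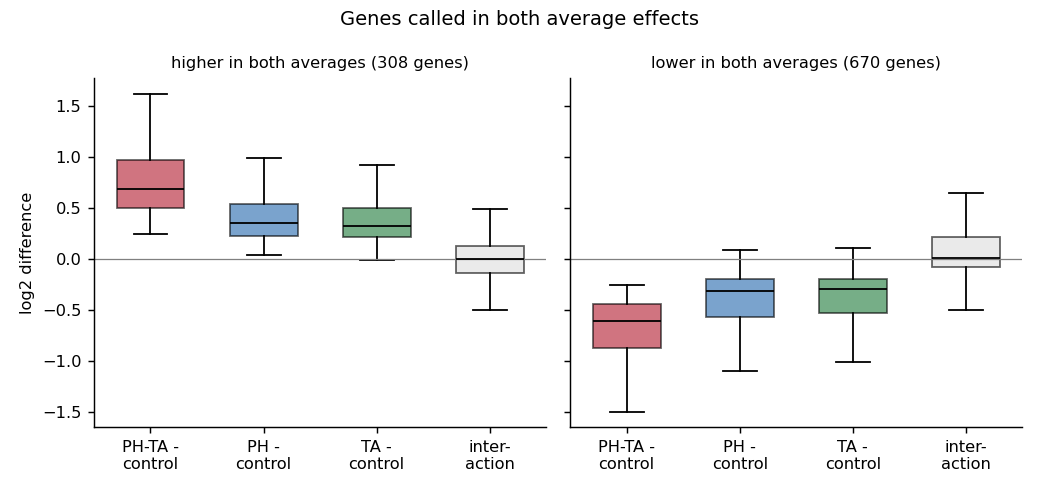
Log2 differences of the 308 genes higher and the 670 genes lower in both average effects: PH-TA, PH and TA each minus control, and the interaction. Boxes span the quartiles with the median as a line, and whiskers reach the last gene within 1.5 box lengths, with genes beyond not drawn. The PH-TA boxes lie about as far from 0 as the PH and TA boxes together, and the interaction boxes span 0.

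Among 25 gene lists with 564 genes tested, 1 gene, Hmox1, was called for the interaction, against 0.0136% of all genes. The median interaction of a list ran from -0.23 for inflammatory cytokines and NF-kB targets to 0.24 for NRF2 targets, beside -0.01 over all genes. The low median of the cytokine list came from replicate 1, at -1.24, with 0.10 and 0.46 in the others. That of the NRF2 list was 0.20, 0.33 and 0.19.

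**Figure D3:**
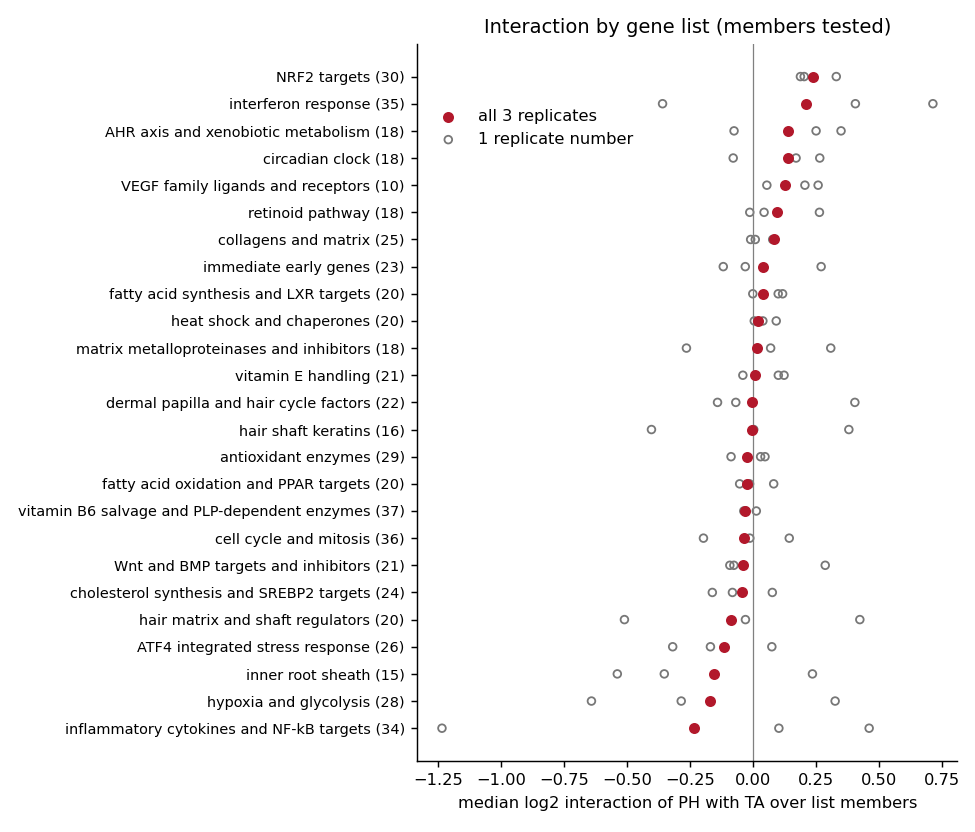
Median log2 interaction of PH with TA over the tested members of 25 gene lists, with the number of members in brackets. Filled points use all 3 replicates and open points 1 replicate number each. The open points of the NRF2 targets lie close together between 0.19 and 0.33, while those of the cytokine list spread from -1.24 to 0.46.

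Of 30 NRF2 targets, 13 had a higher interaction at an unadjusted p under 0.05 and 0 a lower one, against 4.6% and 2.08% of all genes. The 13 include Hmox1, and the list was chosen with earlier results of these data known. Its members were read on the same arrays and are not independent of each other. Besides Hmox1 none passed after adjustment. Gsta3, a glutathione transferase gene, had 1.18 ± 0.31 (limma, adjusted p = 0.306). It read -2.59, -2.33 and -3.11 with PH-TA, -2.82, -3.08 and -2.78 with PH, -3.61, -3.58 and -3.98 with TA, and -3.11, -2.44 and -2.73 in control. The TA arrays were below all others, and Gsta3 fell by 0.96 with TA relative to control (0.037). Slc7a11, the cystine transporter gene, had an interaction of 0.76 (0.506), Aox1, an aldehyde oxidase gene, 0.73 (0.638), Gstm1 0.45 (0.366), Nqo1, a quinone reductase gene, 0.44 (0.669) and Gclm, a subunit of the enzyme that starts glutathione synthesis, 0.41 (0.608). The median change from control of the list was -0.01 with PH-TA, -0.08 with PH and -0.20 with TA. PH-TA raised 7 and lowered 4 of the 30, where it called 29.6% of all genes, 12.1% higher and 17.5% lower. PH raised 1 and lowered 2, against 1.6% and 3.65% of all genes (5.25% in all). TA raised 0 and lowered 3, against 0.399% and 1.43% (1.83% in all). With array brightness in the model 118 genes passed for PH-TA against control, where brightness cannot be told apart from the treatment.

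**Figure D4:**
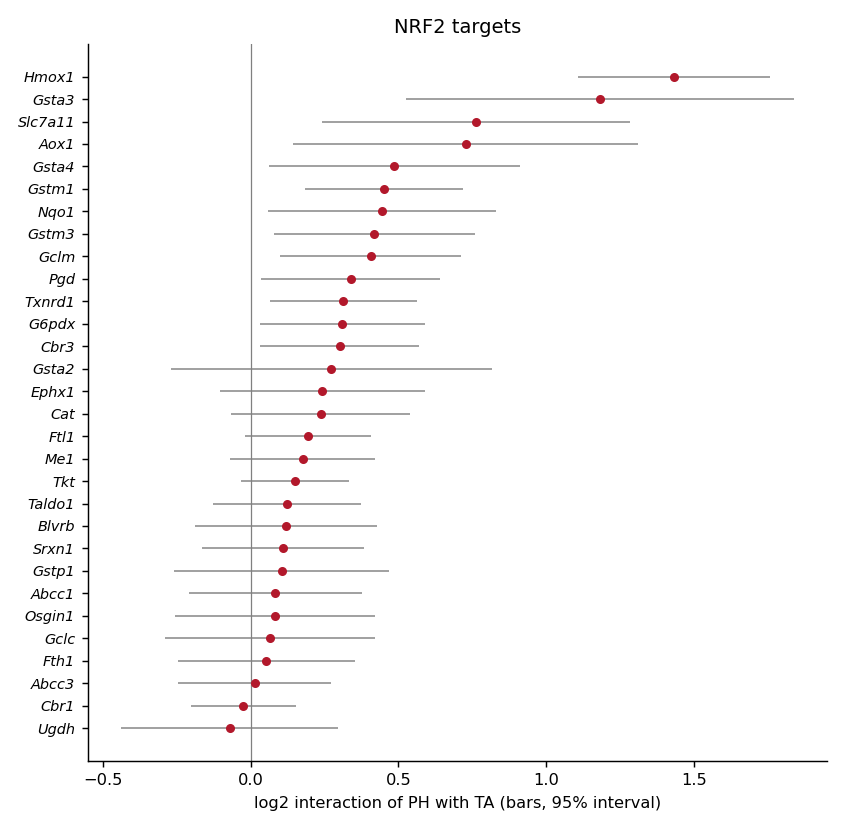
Log2 interaction of PH with TA for the 30 tested NRF2 targets, sorted, with 95% intervals from the limma model. Hmox1 is at 1.43 and 2 members, Cbr1 and Ugdh, are below 0.

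Many genes of the hair shaft and its sheath were higher with the pair, and the median interactions of the lists were -0.15 to -0.01. Most calls for PH-TA against control were lost with array brightness in the model, as given above. Of 15 inner root sheath genes, PH-TA raised 10, PH 4 and TA 3, against 12.1%, 1.6% and 0.399% of all genes. The median change was 0.64 with PH-TA, 0.39 with PH and 0.42 with TA, with a median interaction of -0.15. Most interactions of this list were below 0, the lowest -0.48 for Krt71, which did not pass (limma, adjusted p = 0.651). Krt25, an inner root sheath keratin gene, read 7.30, 7.14 and 7.22 with PH-TA, 6.49, 7.07 and 7.19 with PH, 6.53, 7.05 and 6.85 with TA, and 6.07, 6.35 and 5.87 in control. Every treated array was above every control array. Its interaction was -0.41 (limma, adjusted p = 0.808). Of 16 hair shaft keratins PH-TA raised 7, and PH and TA raised 0, against the same shares of all genes. Their medians were 0.79, 0.41 and 0.37, with an interaction of -0.01. By replicate number that interaction was 0.38, -0.40 and 0.00. Of 20 regulators of the hair matrix and shaft PH-TA raised 11, against 12.1% of all genes, among them Foxn1 by 1.19 and Lef1 by 1.23, and their median interaction was -0.09. The summed level of 13 hair matrix and shaft markers was 8.53 to 8.89 with PH-TA, 8.09 to 8.66 with PH, 7.79 to 8.86 with TA and 7.58 to 8.31 in control on the log2 scale, and its part in these rises was not tested.

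Most cell cycle genes fell with the pair. Of 36, PH-TA lowered 30, PH 15 and TA 0, against 17.5%, 3.65% and 1.43% of all genes. The median change was -0.49 with PH-TA, -0.36 with PH and -0.11 with TA. The median interaction was -0.04. Most calls for PH-TA against control were lost with array brightness in the model, as given above, and its part in these counts was not tested. Aurka, a mitotic kinase gene, read 1.86, 2.06 and 2.11 with PH-TA, 2.33, 2.06 and 2.26 with PH, 2.44, 2.42 and 2.62 with TA, and 2.88, 2.58 and 2.75 in control. The PH-TA and PH arrays were below all TA and control arrays. Its average effect of PH passed (limma, adjusted p = 0.000626) and its interaction was 0.03.

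For the 2 vitamins themselves, no gene was called for the interaction. Among 37 genes of vitamin B6 salvage and pyridoxal phosphate enzymes the median was -0.03, and Gldc, the glycine decarboxylase gene, had the highest value. It read -4.29, -4.39 and -4.29 with PH-TA, -5.02, -4.83 and -4.47 with PH, -4.59, -4.33 and -4.28 with TA, and -3.70, -3.88 and -3.96 in control. All treated arrays were below control, and PH arrays were below all PH-TA arrays. The interaction of Gldc was 1.00 ± 0.22 (limma, adjusted p = 0.141). Pdxk, which phosphorylates vitamin B6, had 0.32 (0.454). Among 21 genes of vitamin E handling the median was 0.01, from -0.50 for Lipe to 0.56 for Stab1. With the mean of its probes Lipe had 0.33, the opposite sign.

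Pgf and Flt1 encode placental growth factor and its receptor, which the study's title names. Pgf read 0.65, 0.34 and 0.35 with PH-TA, 0.25, 0.44 and -0.15 with PH, 0.46, 0.48 and 0.63 with TA, and -0.06, -0.13 and -0.05 in control. The PH-TA and TA arrays overlapped and were above control. The interaction of Pgf was -0.34 ± 0.20 (limma, adjusted p = 0.81). Flt1 read 1.71, 1.27 and 1.26 with PH-TA, 1.10, 0.99 and 0.78 with PH, 0.89, 0.65 and 0.67 with TA, and 0.53, 0.62 and 0.73 in control. Its PH-TA arrays were above all others, and its interaction was 0.35 ± 0.21 (0.824). Neither interaction passed.

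The same interaction in the presence of PEE was a different measurement, on the 12 other arrays, and it passed for 6063 genes (27.5%), 4064 higher (18.4%) and 1999 lower (9.06%). The difference between the interactions with and without PEE passed for 1499 genes (6.79%), 1119 higher with PEE (5.07%) and 380 lower (1.72%). With PEE, the 308 genes higher in both averages had a median interaction of -0.67, and the 670 lower ones 0.74. The medians by replicate number were -0.58, -0.72 and -0.77 for the 308, and 0.70, 0.74 and 0.77 for the 670, all outside the range of those without PEE. The array signal had an interaction of -0.68, -0.77 and -0.41 with PEE. With array brightness in the model 71 genes passed with PEE, and 0 for the difference, but brightness and treatment cannot be told apart there either.

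**Figure D5:**
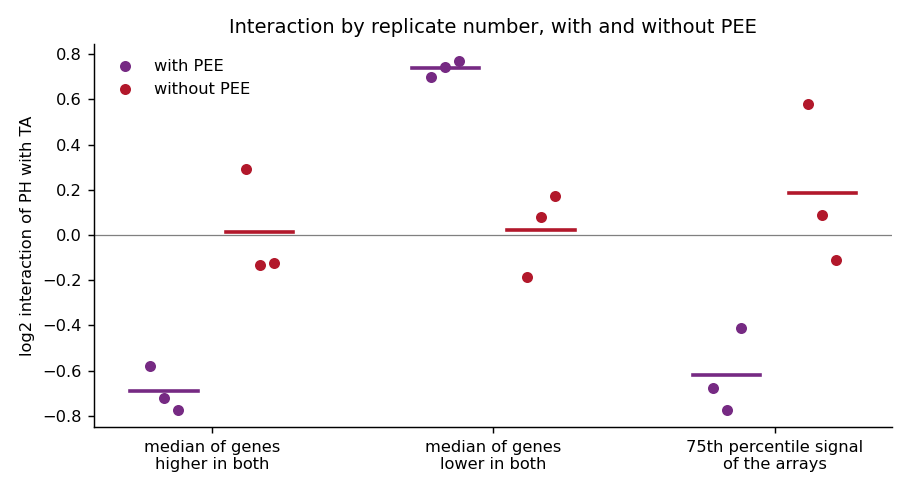
Log2 interaction of PH with TA by replicate number, with PEE and without PEE, for the medians of the 308 and 670 genes and for the 75th percentile signal of the arrays. Points are replicate numbers and bars their means. With PEE the points lie on 1 side of 0 in each column, and without PEE on both sides.

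Across 22065 genes the interactions with and without PEE correlated at r = 0.27. They shared no arrays, but same-numbered samples shared a slide and may have shared an experiment, and genes are not independent replicates. Hmox1 had 0.45 with PEE (limma, adjusted p = 0.0367), 0.98 less than without it (0.0195). Gfod1 had 1.98 (2.43e-06), 0.82 more (0.0336). Without the 4 arrays low in Xist, which left 1 PH array, these 2 differences were -1.02 and 0.82. Neither difference passed without any 1 replicate number, at adjusted p-values of 0.0698 to 0.258 for Hmox1 and 0.0889 to 0.243 for Gfod1. With the mean of its probes, the difference for Gfod1 was 0.58 and did not pass (0.203). With normexp background correction Hmox1 had 0.29 with PEE and did not pass (0.079), while both differences passed. Lime1 had 0.41 (0.00573), and the difference did not pass (0.226). Pgf had -0.70 (0.0143) and Flt1 -0.60 (0.0404) with PEE, and their differences from the values without PEE did not pass (0.421 and 0.0575).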

How the data were processed

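Each array was scanned in 1 green channel, although the labels name biotin. Signal intensities were deposited as read by Agilent Feature Extraction 12.0.3.1, per the submitters' processing notes and the file headers. Log2 values deposited by the authors served as an alternative. Probe positions are in mm9.

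The processed signal was taken as log2, minus log2 of its array's 75th percentile. Spots flagged as non-uniform (41) or as population outliers (2347) were left out, and 0 were saturated. Of 56605 probes, 33340 passed, meaning that all arrays of 1 or more of the 8 groups were well above background. A further 25 met this and were left out for missing spots. Where a gene had several probes the brightest on average was kept, which gave 22065 genes or transcripts, 15495 of them named. A limma model gave each of the 8 groups a mean, with 16 residual and 2.19 prior degrees of freedom and Benjamini-Hochberg adjustment at 0.05. P-values measure the spread between the 3 samples of a group.

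Named genes were up to 10 each way for the interaction, with open places filled by the lowest p of 1 sign in all 3 replicate numbers, up to 8 each way for the averages, Pgf, Flt1, and up to 2 per list for the interaction and for the averages. The members and lists were chosen with earlier results of these data known. Other genes of the lists are given for their values, and 1 gene that the rule named is not reported here. Same-numbered samples of the 4 groups correlated at -0.09 to 0.26 in their deviations, with 8 of 18 pairs over 0.1, against 4 of 36 differently numbered pairs. Over all 24 arrays these were 44 of 84 and 17 of 168. Same-numbered samples, which also share a slide, thus deviated together more often, but not in every pair. The main model leaves this pairing out, and a fit with a replicate block is among the alternatives below. The fit was tested on simulated data. Tools were R 4.3.3, limma 3.58.1, Python 3.11.15 and matplotlib 3.10.9.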

Additional observations from a re-analysis of the deposited data

Results flagged for a closer look

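The effect of PH differed with and without TA for 3 genes by the test of the interaction, at 1.43 for Hmox1, 1.16 for Gfod1 and 0.68 for Lime1 on the log2 scale. The interaction itself differed with and without PEE for 1499 genes, and among the genes named here by -0.98 for Hmox1 and 0.82 for Gfod1. In the main model, Hmox1 was closer to the sum of the single changes with PEE present, and Gfod1 farther above it. Neither difference passed when a replicate number was left out, nor that of Gfod1 with the mean of its probes. The interaction of array signal also differed between the 2 backgrounds, as given above, and its part was not tested.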

How the results depend on the processing

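Counts below are genes past the threshold. For the interaction itself, 3 genes passed, against 6 in the values of the authors and 4 with the replicate block. Only the 12 arrays gave 2, and array signal as a covariate in those 12 arrays gave 0. There were 2 to 9 when 1 array was left out and 0 to 3 when a replicate number was left out. Quantile normalization gave 986 for the difference between PEE backgrounds, the values of the authors 795 and the replicate block 2249. Normexp, with its offset of 50, gave 8322 for the average of PH (2269 higher, 6053 lower) and 6549 for that of TA. It gave 12024 for PH-TA against control, 12162 for the interaction with PEE and 10052 for the difference. With no filter on dim probes the counts were 8771 for the average of PH, 5882 for that of TA, 12649 for PH-TA, 733 for PH and 165 for TA against control, 13053 with PEE and 8489 for the difference. With only the 12 arrays the average of TA had 1192. With array signal as a covariate there were 296 for the average of PH, 0 for that of TA, 118 for PH-TA, 634 for PH and 150 for TA against control, 71 with PEE, 1187 for the interaction averaged over PEE backgrounds and 0 for the difference. The same with 12 arrays gave 0 for both averages, 0 for PH-TA, 380 for PH and 125 for TA. Without the 4 arrays low in Xist, there were 1336 and 1 for the averages of PH and TA, 3441 for PH-TA, 357 for PH and 1 for the difference. The causes were not tested.

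Leaving out 1 array gave 2176 to 4100 for the average of PH, 471 to 2705 for that of TA, 3882 to 6602 for PH-TA, 279 to 1198 for PH, 14 to 430 for TA, 5878 to 6125 with PEE, 2319 to 3089 for the average over PEE backgrounds and 567 to 2247 for the difference. Leaving out a replicate number gave 700 to 2218, 0 to 52, 2281 to 4754, 0 to 513, 4 to 54, 1310 to 4609, 302 to 1763 and 1 to 944 in the same order.

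Signs turned for 28 single values, of which those under normexp were near 0 and held its offset of 50. Under normexp these were Thrsp -0.097, Ehhadh -0.061, Ahrr -0.097 and Sp5 -0.063 for the interaction, Speer1 -0.0093 and Trim31 -0.045 for PH, and Dusp27 -0.0073, Ascl4 -0.051, Spon1 -0.037 and Dipk1c -0.077 for TA. With the mean of probes they were Acacb 0.076 and Lipe 0.33 for the interaction and Abat -0.016 for PH. With array signal as a covariate Acacb had 0.26, and 0.13 with 12 arrays. Without TA replicate 2 Krt82 had 0.06 and Krt32 0.17. Leaving out a replicate number turned the interaction of 8 genes for at least 1 number, with ranges of -1.56 to 0.70 for Cxcl9, -1.57 to 0.28 for Csf2, -0.67 to 0.16 for Krt82, -0.73 to 0.39 for Krt32, -0.68 to 0.22 for Dlx2, -0.95 to 0.036 for Egln3, -0.86 to 0.082 for Car9 and -0.040 to 0.74 for Lum. Without the 4 arrays low in Xist Acacb had 0.034, Cxcl9 0.69 and the PEE difference of Pgf 0.00081. Of the other values for single genes, 3542 kept their direction and side of the threshold, 533 lost the call and 9 gained it.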
